A study of Mus musculus with 16 samples.

Results

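The genes described here are the nuclear-encoded subunits of the mitochondrial respiratory chain and ATP synthase, with a few factors that carry the same symbol stems. They were taken by symbol from the deposited counts: every gene beginning with Nduf, Cox4 to Cox8, Uqcr or Atp5, and Sdha to Sdhd, leaving out symbols that contain -ps. The rule found 92 genes of the 46882 listed. They comprise 36 subunits of complex I, 7 complex I assembly factors (Ndufaf), 4 subunits of complex II, 8 of complex III, 20 genes of complex IV, 15 of ATP synthase (complex V), and Atp5s and Atp5sl, which carry the Atp5 stem without being ATP synthase subunits. The 20 genes of complex IV include Ndufa4 and Ndufa4l2, which have a complex I name, and Cox7a2l, a factor that joins complexes III and IV.

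The respiratory chain passes electrons taken from NADH by complex I, and from succinate by complex II, through ubiquinone to complex III, then through cytochrome c to complex IV, which reduces oxygen. Complexes I, III and IV move protons across the inner membrane, and complex V uses the gradient to make ATP. Complexes I, III, IV and V also hold subunits encoded in mitochondrial DNA, whose genes are not among those described here, and the subunits described here are imported from the cytosol. In the intestine, absorptive cells of the colon are known for oxidising butyrate in their mitochondria, and goblet cells for making mucin.

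The samples were bulk RNA of sorted intestinal epithelium. The donors, 6 to 8 weeks old, were RedMUC298trTg mice, a transgenic strain in which mCherry is attached to the mucin MUC2. The mCherry-positive cells sorted from the distal colon (DC.GC) were set against the mCherry-negative epithelial cells of the same region, which the labels call colonocytes (DC.EC). The same 2 fractions came from the 8th section of the small intestine (Si8.GC, and Si8.EC, which is labelled enterocytes). Each of the 4 groups had 4 libraries, all groups carried the reporter transgene, and the sort rests on mucin expression, so the EC fractions hold every epithelial cell without the signal. The labels do not say that the libraries came from separate mice, so the p-values measure the spread between these libraries, which may be technical. GC lysates were purified on MinElute columns and EC lysates on Mini columns, so the column and the cell fraction cannot be told apart.

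The DC libraries held 11915081 to 18530171 counts and the Si8 libraries 30839377 to 41075589. The mitochondrially encoded genes had 0 counts in every DC library and took 3.19 to 8.36% of the counts of the Si8 libraries, so region, depth and the handling of these genes cannot be told apart. The mucin Muc2 and the mucus protein Fcgbp together took 2.78 to 2.97% of counts in DC.GC against at most 0.0142% in DC.EC, and 9.20 to 17.8% in Si8.GC against at most 0.0406% in Si8.EC. All 8 goblet markers were higher in the GC fraction of both regions. The 92 genes took 1.31 ± 0.09% of counts in DC.GC, 1.31 ± 0.10% in DC.EC, 0.99 ± 0.16% in Si8.GC and 1.11 ± 0.14% in Si8.EC (SD, n = 4 each). The totals behind these shares include the mitochondrially encoded genes, Muc2 and Fcgbp. As CPM (counts scaled to a common library size), the 92 genes summed to 11325 ± 619 in DC.GC and 12189 ± 700 in DC.EC. The sums were 10892 ± 778 in Si8.GC and 12491 ± 614 in Si8.EC (SD, n = 4 each).

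Of the 92 genes, 86 had enough counts to be tested. The other 6 were tissue-restricted isoforms of complex IV subunits or the Ndufa4 paralog known for its induction by low oxygen. Over all 16 libraries they held 6 counts for Cox4i2 (the lung form), 12 for Cox6a2 and 19 for Cox8b (muscle forms), 3 for Cox7b2 and 2 for Cox8c (testis forms), and 16 for Ndufa4l2. Cox8b had 17 of its 19 counts in DC.GC, with at least 1 in each of the 4 libraries, and none in DC.EC. The widely expressed partner of each was abundant. Divided by transcript length, Cox4i1 averaged 472 CPM (counts scaled to a common library size) per kilobase in DC.GC, 631 in DC.EC, 378 in Si8.GC and 458 in Si8.EC. Among the Cox7a forms, the widely expressed Cox7a2 stood at 226 CPM per kilobase in DC.GC and 247 in DC.EC. Cox7a1, known as the heart and skeletal muscle form, stood at 54.2 in DC.GC and 82.5 in DC.EC.

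Levels differed more between complexes than between groups. The median over the tested genes of a complex, in CPM per kilobase, was 60.9 in DC.GC and 65.5 in DC.EC for complex I, 206 in DC.GC and 226 in DC.EC for complex V, and 223 in DC.GC and 267 in DC.EC for complex IV. The complex I assembly factors were far lower, at 7.29 in DC.GC and 7.58 in DC.EC. In Si8 the complex IV median was 192 CPM per kilobase in Si8.GC and 206 in Si8.EC. The gene with the highest level in every group was Atp5b, the catalytic beta subunit of ATP synthase, at 746 in DC.GC, 764 in DC.EC, 775 in Si8.GC and 938 in Si8.EC.

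Within the distal colon, goblet cells had lower levels of most complex IV subunits than the remaining epithelium, while complexes I and V changed in few genes. Of the 86 genes tested, 9 were higher and 23 lower in DC.GC than in DC.EC (edgeR quasi-likelihood test, Benjamini-Hochberg adjusted p under 0.05). Among all 16001 genes tested, 27.8% were higher and 27.9% lower, 55.7% in all. The median log2 fold change was -0.06 over the 86 genes and 0.03 over all genes. By complex, the calls were 2 higher and 9 lower of 14 genes for complex IV (median log2 fold change -0.34), 0 higher (0 also at an unadjusted p under 0.05 and by DESeq2) and 4 lower of 8 for complex III (-0.21), 1 higher and 1 lower of 4 for complex II (-0.03), 1 higher and 6 lower of 36 for complex I (-0.03), and 2 higher and 2 lower of 15 for complex V (-0.10). The count of 9 complex IV genes lay between 6 and 10 when single libraries were left out.

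In the 8th section of the small intestine, 7 of the 86 genes were higher and 25 lower in Si8.GC than in Si8.EC (edgeR quasi-likelihood test). All genes tested gave 33.1% higher and 31.8% lower, 64.9% in all. The median log2 fold change was again -0.06, against 0.03 over all genes. Complex IV had 1 gene higher and 6 lower of 14 (median -0.16), complex V 1 higher and 6 lower of 15 (-0.11), complex III 1 higher and 3 lower of 8 (-0.13), complex II 0 higher (0 also at an unadjusted p under 0.05 and by DESeq2) and 2 lower of 4 (-0.27), and complex I 1 higher and 7 lower of 36 (-0.04). Lower calls were thus found in each of the complexes I, II, III, IV and V, as they were in the distal colon. The share called in either direction in Si8 was 22.2% in complex I, 46.7% in complex V and 50% in complexes II, III and IV. Each lay below the 64.9% of all genes tested. The strongest decreases were those of Cox7a1 and Cox6b2, both tissue forms of complex IV subunits.

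**Figure D1:**
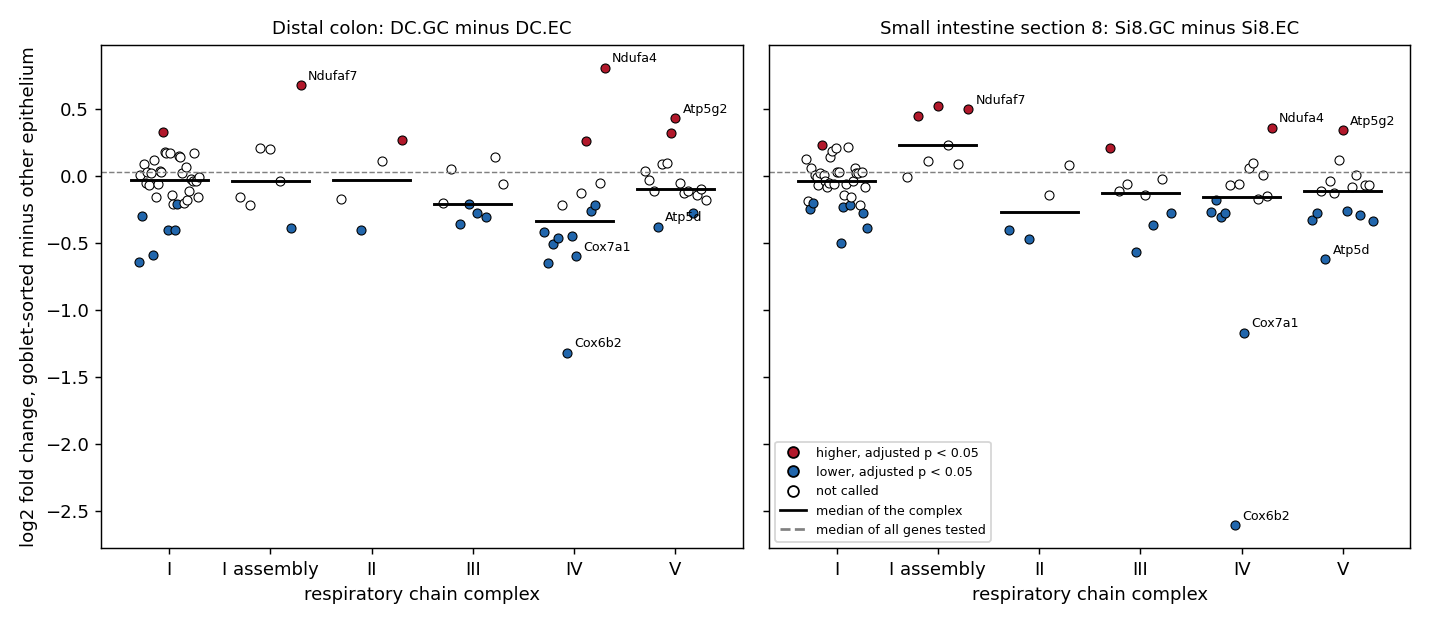
Fitted log2 fold change of each tested gene, goblet-sorted cells minus the remaining epithelium, by complex, in the distal colon (left) and the 8th small intestinal section (right). Filled points passed an adjusted p of 0.05, bars are the median of the complex and the dashed line is the median of all genes tested (0.03 in both panels). Complex IV has 9 of its 14 points called lower in the distal colon, with Ndufa4 on the other side at 0.81.

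In bulk samples a lower level cannot be assigned to fewer cells of a kind or to less RNA per cell. Markers of other cell types moved with the sort. Absorptive markers were lower in 8 of 11 genes in DC.GC and 10 of 11 in Si8.GC, and their summed level was 221 to 307 CPM in DC.GC against 6470 to 7200 in DC.EC, and 1920 to 3320 in Si8.GC against 10200 to 19000 in Si8.EC. The 9 Paneth markers summed to 13900 to 38600 CPM in Si8.GC and 813 to 2180 in Si8.EC, and all 9 were higher in Si8.GC. In the distal colon they summed to 35.1 to 38.9 CPM in DC.GC and 0.578 to 1.19 in DC.EC, with 5 of the 9 higher and 0 lower in DC.GC, and 4 of them (Defa24, Defa17, Defa21 and Defa22) had 0 counts in both fractions. The 8 enteroendocrine markers summed to 65.5 to 92.4 CPM in DC.GC against 422 to 553 in DC.EC, and to 81.2 to 153 in Si8.GC against 327 to 461 in Si8.EC. Intraepithelial lymphocyte markers (7 genes) summed to 12.3 to 21.1 CPM in Si8.GC against 222 to 342 in Si8.EC, and to 2.04 to 3.03 in DC.GC, with Cd3g, Gzma and Gzmb at 0, against 6.57 to 7.77 in DC.EC. Markers of B, plasma and myeloid cells (7 genes) summed to 28.9 to 32.2 CPM in DC.GC and 25.2 to 31.4 in DC.EC, and to 45.0 to 91.8 in Si8.GC and 76.8 to 142 in Si8.EC. Stromal and muscle markers (6 genes) stayed at or below 4.05 CPM in the GC fractions, against 12.3 to 21.6 in DC.EC and 21.4 to 24.2 in Si8.EC. Stem and proliferation markers (9 genes) summed to 1560 to 2160 CPM in Si8.GC against 1110 to 1460 in Si8.EC, and to 746 to 1000 in DC.GC against 648 to 953 in DC.EC. Tuft markers (6 genes) summed to 24.9 to 33.9 CPM in DC.GC and 22.1 to 49.0 in DC.EC, and to 37.1 to 62.5 in Si8.GC and 55.2 to 78.7 in Si8.EC. Their part in the results was not tested.

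Complex IV. Cox5a, a matrix-side subunit joined early in assembly, had 139, 141, 149 and 135 CPM in the DC.GC libraries, against 213, 218, 231 and 221 CPM in the DC.EC libraries. Every goblet library lay below every colonocyte library. The log2 fold change was -0.65 ± 0.07 (SE; adjusted p = 2.5e-07). In Si8 the gene had 164, 137, 144 and 134 CPM in Si8.GC against 173, 166, 156 and 161 in Si8.EC. There the groups overlapped, and the change of -0.18 ± 0.07 passed narrowly (edgeR adjusted p = 0.0377). It missed the threshold in 14 of 22 alternatives, among them leaving out Si8.GC library 4, 6 or 8, Si8.EC library 1 or 3, or any 1 of 6 DC libraries (DC.GC 9, 11 or 18, DC.EC 10, 12 or 17), with adjusted p between 0.0521 and 0.265.

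Cox5b, which binds zinc on the matrix side, had 137, 152, 161 and 142 CPM in DC.GC against 214, 211, 228 and 195 in DC.EC. It fell by 0.51 on the log2 scale (SE 0.08; edgeR adjusted p = 1.6e-05). In Si8 it had 178, 157, 168 and 149 CPM in Si8.GC against 217, 203, 202 and 185 in Si8.EC, and fell by 0.31 (edgeR adjusted p = 0.00218). The groups were apart in both regions. Cox4i1, the partner of Cox5a in early assembly, behaved likewise: 345, 364, 374 and 361 CPM in DC.GC against 465, 522, 486 and 456 in DC.EC, and 312, 280, 290 and 276 in Si8.GC against 354, 357, 343 and 346 in Si8.EC. Its log2 fold changes were -0.42 in DC and -0.27 in Si8 (edgeR adjusted p = 3.4e-05 and 0.00176).

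Cox6a1, a transmembrane subunit of the dimer interface, had 197, 215, 220 and 212 CPM in DC.GC against 297, 285, 301 and 276 in DC.EC. In Si8 it had 180, 171, 172 and 170 in Si8.GC against 218, 201, 214 and 208 in Si8.EC. No library of one fraction reached the range of the other, and the log2 fold changes were -0.46 ± 0.06 in DC and -0.28 ± 0.06 in Si8 (edgeR adjusted p = 4.4e-06 and 0.000789). Cox6c, another transmembrane subunit, fell by 0.45 in DC (184 ± 6.57 CPM in DC.GC, 251 ± 26.6 in DC.EC; edgeR adjusted p = 0.000293). Cox7c fell by 0.22 there (123 ± 2.15 CPM in DC.GC, 143 ± 13.2 in DC.EC; edgeR adjusted p = 0.0335), but missed the threshold in 8 alternatives (adjusted p 0.0526 to 0.0984), without any 1 of the 4 DC.GC libraries or DC.EC library 12 or 14 among them. In Si8 neither passed: Cox6c averaged 144 CPM in Si8.GC and 150 in Si8.EC, and Cox7c 98.6 in Si8.GC and 98.2 in Si8.EC.

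Cox7b fell by 0.26 in DC with overlapping libraries (edgeR adjusted p = 0.0234), and missed the threshold in 4 alternatives. Among them were the fits without DC.GC library 9 or 11 or DC.EC library 14 (adjusted p = 0.0663, 0.0694 and 0.0958). Cox6b1, Cox7a2 and Cox8a, a further 3 widely expressed subunits, passed in neither region. Their log2 fold changes were -0.22, -0.13 and -0.05 in DC and -0.07, 0.06 and -0.15 in Si8. In a fit chosen after seeing the data, with adjacent library numbers (a GC and an EC library of 1 region, which the labels do not describe as pairs) as a block, Cox6b1 was called in DC and Cox8a in Si8 (edgeR adjusted p = 0.00552 and 0.0229).

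The muscle form Cox7a1 fell in both regions. Its libraries had 22.5, 18.1, 25.6 and 19.0 CPM in DC.GC against 28.6, 37.1, 32.3 and 31.7 in DC.EC, and 9.76, 8.35, 11.2 and 9.82 CPM in Si8.GC against 22.2, 19.1, 21.8 and 24.9 in Si8.EC. The fractions did not overlap in either region. The log2 fold change was -0.60 ± 0.12 in DC and -1.17 ± 0.12 in Si8 (edgeR adjusted p = 0.000284 and 8.1e-08). Cox6b2, known as the testis form, was near the lower end of detection in goblet cells, with 0.294 to 0.837 CPM in DC.GC against 1.15 to 2.14 in DC.EC. In Si8 it had 0.692 to 0.990 CPM in Si8.GC against 3.86, 2.14, 7.25 and 7.42 in Si8.EC, a log2 fold change of -2.61 ± 0.34 (edgeR adjusted p = 2.2e-06). The 4 Si8.EC libraries were widely spread, and all lay above the Si8.GC libraries. Without DC.GC library 9 the DC change of -1.32 missed the threshold (-1.19, edgeR adjusted p = 0.0501).

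**Figure D2:**
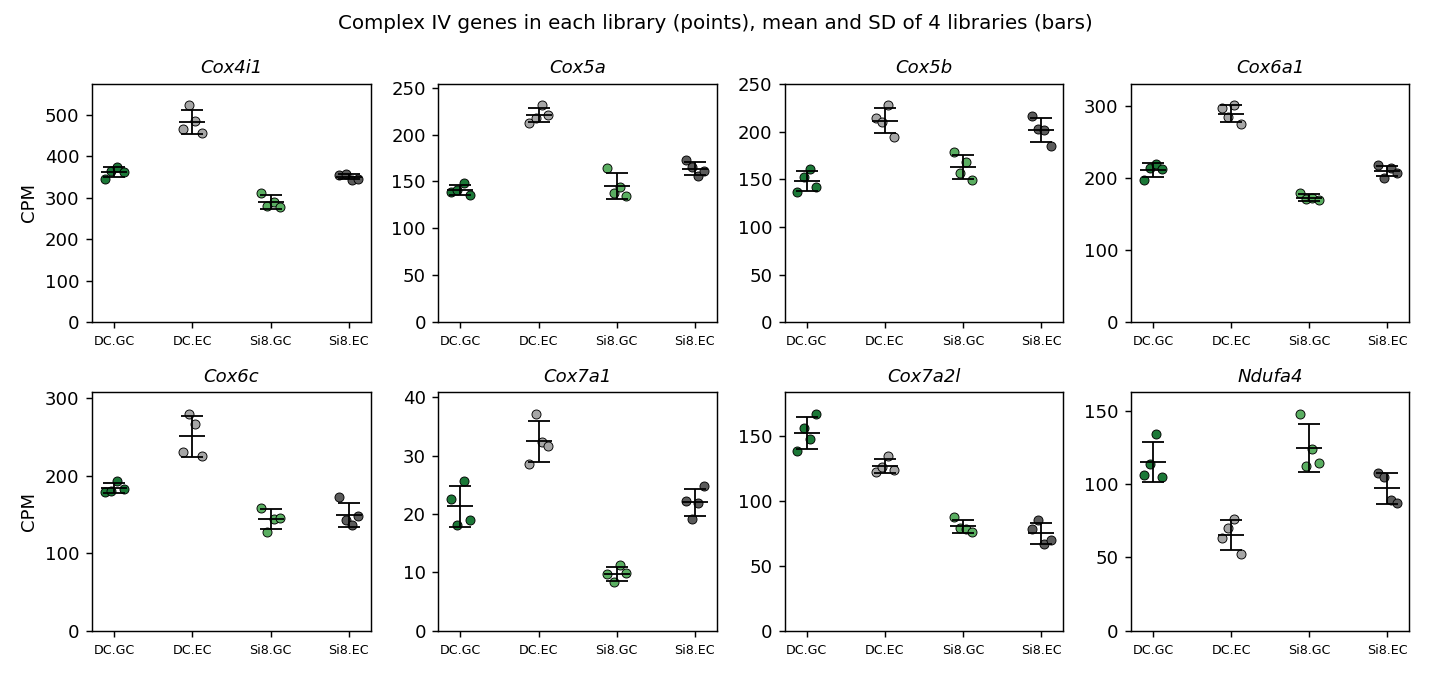
CPM of 8 complex IV genes in each library (points), with the mean and SD of 4 libraries (bars), for DC.GC, DC.EC, Si8.GC and Si8.EC. Cox4i1, Cox5b, Cox6a1 and Cox7a1 lie lower in the goblet fraction of both regions without overlap, and Ndufa4 lies higher.

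Cox7a2l and Ndufa4 went the other way. Cox7a2l, which links complexes III and IV into supercomplexes, had 139, 156, 148 and 167 CPM in DC.GC against 122, 126, 135 and 124 in DC.EC. It rose by 0.26 ± 0.08 without overlap (edgeR adjusted p = 0.0099), a call that was lost without DC.EC library 12 (0.23, adjusted p = 0.0545). In Si8 its values overlapped (76.4 to 87.9 CPM in Si8.GC, 66.9 to 85.0 in Si8.EC; edgeR adjusted p = 0.29). Near-identical copies are annotated for 30 of the 92 genes, among them Cox7a2l (2 copies), Ndufa4, Cox5a, Cox5b, Cox6a1, Cox6c, Cox7b and Cox7c. The counts of these genes are uncertain to the extent that shared reads were dropped.

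Ndufa4 was first counted as a complex I subunit and is now known to belong to complex IV. It had 106, 114, 134 and 105 CPM in DC.GC against 63.4, 70.2, 76.2 and 52.4 CPM in DC.EC. It was higher in every goblet library, with a log2 fold change of 0.81 ± 0.12 (1.75-fold; edgeR adjusted p = 8.7e-06). In Si8 it had 148, 112, 124 and 114 CPM in Si8.GC against 107, 105, 88.9 and 87.4 in Si8.EC. The ranges again did not overlap, and the change of 0.36 ± 0.12 passed (edgeR adjusted p = 0.0113) but did not without Si8.GC library 2 (0.26, adjusted p = 0.0566).

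AA467197, a paralog of Ndufa4 that RefSeq lists under the synonym Nmes1, is outside the symbol rule and was looked at after its values were seen. Its human counterpart is known to take the place of the Ndufa4 protein in complex IV. It had 23.9, 26.9, 28.1 and 28.5 CPM in DC.GC against 89.6, 98.6, 121 and 100 CPM in DC.EC. In Si8 it had 22.1, 12.6, 22.8 and 15.8 CPM in Si8.GC against 53.7, 36.5, 53.2 and 44.8 CPM in Si8.EC. Goblet libraries were lower without overlap in both regions, the opposite direction to Ndufa4. The log2 fold changes were -1.93 ± 0.17 in DC and -1.36 ± 0.16 in Si8 (edgeR adjusted p = 2.2e-08 and 1.3e-06). The ratio of Ndufa4 to AA467197 counts was 4.28 ± 0.46 in DC.GC and 0.64 ± 0.09 in DC.EC, and 7.07 ± 1.45 in Si8.GC and 2.12 ± 0.52 in Si8.EC (SD, n = 4 each). DC.EC was the group in which AA467197 had the higher count of the pair, in all 4 libraries.

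**Figure D3:**
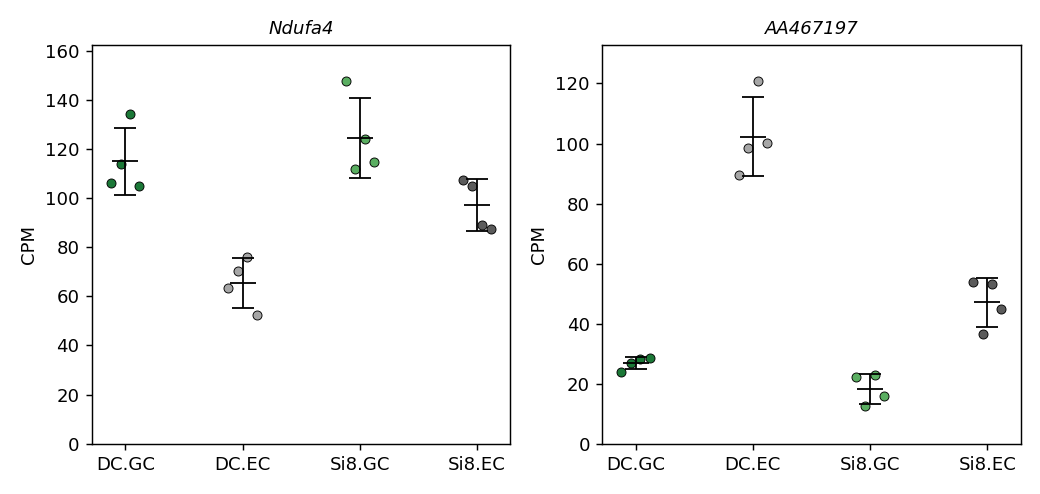
CPM of Ndufa4 (left) and of its paralog AA467197 (right) in each library (points), with the mean and SD of 4 libraries (bars), for DC.GC, DC.EC, Si8.GC and Si8.EC. Ndufa4 averages 115 CPM in DC.GC and 65.5 in DC.EC, and AA467197 26.9 in DC.GC and 102 in DC.EC.

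The 250 bases upstream of the RefSeq start are shown for genes on both sides of this split, Ndufa4 and Atp5g2, higher in goblet cells of both regions, and Cox5a, Cox5b and Cox6a1, lower in both (build GRCm38.p6, given on the strand of the gene). Capitals mark matches to motifs of factors known for nuclear respiratory genes, searched on both strands: GCATGCGC (NRF1 core), TCAAGGTCA (ERR), CCGGAAG (GABP/ETS) and AAGATGG (YY1). Ndufa4 lies at chr6:11907451-11907700 (minus strand), Atp5g2 at chr15:102671048-102671297 (minus), Cox5a at chr9:57520982-57521231 (plus), Cox5b at chr1:36691237-36691486 (plus) and Cox6a1 at chr5:115348959-115349208 (minus).
Ndufa4: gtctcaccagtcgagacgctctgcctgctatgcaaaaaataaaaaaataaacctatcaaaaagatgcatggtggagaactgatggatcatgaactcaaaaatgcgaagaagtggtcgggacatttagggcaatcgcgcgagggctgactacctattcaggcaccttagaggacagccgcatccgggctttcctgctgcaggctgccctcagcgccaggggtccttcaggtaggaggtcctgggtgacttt
Atp5g2: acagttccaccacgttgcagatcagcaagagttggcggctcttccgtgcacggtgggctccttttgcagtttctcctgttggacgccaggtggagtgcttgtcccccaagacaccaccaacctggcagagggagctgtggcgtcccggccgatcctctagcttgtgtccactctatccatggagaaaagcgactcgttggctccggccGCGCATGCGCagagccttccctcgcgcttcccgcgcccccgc
Cox5a: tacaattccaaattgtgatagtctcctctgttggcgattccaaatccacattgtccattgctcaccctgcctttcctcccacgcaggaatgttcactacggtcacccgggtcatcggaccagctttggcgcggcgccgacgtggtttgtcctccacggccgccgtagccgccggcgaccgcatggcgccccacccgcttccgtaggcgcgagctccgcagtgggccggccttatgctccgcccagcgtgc
Cox5b: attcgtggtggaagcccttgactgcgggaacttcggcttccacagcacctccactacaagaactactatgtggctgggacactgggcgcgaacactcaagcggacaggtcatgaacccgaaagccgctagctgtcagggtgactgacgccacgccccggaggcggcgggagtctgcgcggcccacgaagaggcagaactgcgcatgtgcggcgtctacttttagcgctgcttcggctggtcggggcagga
Cox6a1: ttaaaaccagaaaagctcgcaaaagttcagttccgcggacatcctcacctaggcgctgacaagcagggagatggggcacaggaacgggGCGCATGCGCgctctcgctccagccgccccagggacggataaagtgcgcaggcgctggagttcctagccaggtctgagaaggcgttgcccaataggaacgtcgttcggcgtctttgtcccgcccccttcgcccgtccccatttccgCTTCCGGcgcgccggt

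Both strands of the NRF1 core matched in Atp5g2 and in Cox6a1, as an overlapping pair of the motif and its reverse complement, although these 2 genes changed in opposite directions. Cox6a1 also held a GABP/ETS match close to its start. The upstream windows of Ndufa4, Cox5a and Cox5b held none of the 4 letter strings. Over the full windows of 300 bases (250 before and 50 after the start), 74 of the 92 genes had an entry that was kept from the RefSeq table. Windows on chromosome 18, where Atp5a1 and Ndufa2 lie, and windows of another length were left out before counting. The NRF1 core was present in 16.2% of these 74 against 5.16% of the 10713 windows of genes tested here. CCGGAAG was present in 21.6% against 17.2%, AAGATGG in 13.5% against 7.09%, and TCAAGGTCA in 2.70% against 0.261%. The last share of the 74 rests on 2 windows. Over all 27025 windows kept, the shares were 2.80%, 9.12%, 6.48% and 0.407% in the same order. A match is a string of letters in the window, and no test was made on these shares.

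Complex I. The 7 calls of DC.GC against DC.EC all fell among the 22 genes left after the NADH-oxidising and ubiquinone-side modules were set apart, which are mostly, but not all, subunits of the membrane arm. Of the 9 genes of the NADH-oxidising module and the 5 of the ubiquinone-side module, 0 passed in edgeR's quasi-likelihood test, with 1 of each group at an unadjusted p under 0.05 and 1 of each called by DESeq2. In a fit with adjacent library numbers as a block, 2 of each were called, where 5105 of all 16001 genes tested were higher and 4923 lower. Ndufa1, an X-linked membrane arm subunit, had 46.1, 46.9, 47.9 and 45.4 CPM in DC.GC against 70.6, 76.1, 76.9 and 67.8 CPM in DC.EC. The goblet libraries were tightly grouped and all lower, with a log2 fold change of -0.64 ± 0.08 (edgeR adjusted p = 1.5e-06). Ndufa6, which anchors the mitochondrial acyl carrier protein to the matrix arm, had 95.8, 92.3, 101 and 89.2 CPM in DC.GC against 141, 148, 147 and 135 in DC.EC (-0.59 ± 0.07; edgeR adjusted p = 7.6e-07).

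In Si8 neither gene passed. Ndufa1 had 33.1, 29.7, 35.5 and 36.0 CPM in Si8.GC against 35.4, 29.7, 30.1 and 28.1 in Si8.EC, and Ndufa6 averaged 76.2 CPM in Si8.GC and 75.1 in Si8.EC. The Si8 calls lay elsewhere. Ndufb7, an intermembrane-space subunit of the membrane arm, fell by 0.50 (58.4, 59.1, 56.1 and 50.1 CPM in Si8.GC against 76.3, 76.2, 84.8 and 78.2 in Si8.EC; edgeR adjusted p = 5.8e-05). Ndufv3, an accessory subunit of the NADH module, fell by 0.39 (62.4 ± 5.24 CPM in Si8.GC, 81.8 ± 5.44 in Si8.EC; edgeR adjusted p = 0.000124). Ndufv1, which binds the flavin that accepts electrons from NADH, fell by 0.28 (112 ± 9.33 CPM in Si8.GC, 135 ± 7.85 in Si8.EC; edgeR adjusted p = 0.00483). The genes lower in both regions were Ndufb8 and Ndufa11, both membrane arm subunits (-0.40 and -0.30 in DC, -0.23 and -0.25 in Si8). Of these calls, that of Ndufb8 in DC held under every alternative. Ndufa11 lost its call without DC.GC library 9, 11 or 18 or DC.EC library 10 or 14 in DC (adjusted p 0.0538 to 0.0748), and without DC.EC library 12, Si8.GC library 4 or 8 or Si8.EC library 5 in Si8, among 6 alternatives (0.0595 to 0.116). Ndufb8 lost its Si8 call in 11 alternatives, including without Si8.GC library 4, 6 or 8, Si8.EC library 1 or 3, DC.GC library 11 or 18, or DC.EC library 10 or 12 (0.0503 to 0.122). Reads of Ndufb8 may be shared with the overlapping gene model Gm20538.

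Against this direction, Ndufb11 rose in DC (77.0 ± 5.37 CPM in DC.GC, 61.2 ± 5.64 in DC.EC; log2 fold change 0.33, edgeR adjusted p = 0.00115), and Ndufa7 rose in Si8 by 0.23 (edgeR adjusted p = 0.0289). The Ndufa7 call was lost without Si8.GC library 2 or Si8.EC library 7 (adjusted p = 0.119 and 0.0712), with size factors of the relative log expression kind (0.0799) and in DESeq2 (0.0981). Among the assembly factors, Ndufaf7, a mitochondrial methyltransferase, rose in both regions. It had 24.6, 23.8, 26.7 and 25.4 CPM in DC.GC against 17.03, 12.95, 18.06 and 14.74 in DC.EC, and 17.5, 15.3, 14.7 and 13.2 CPM in Si8.GC against 10.996, 12.2, 9.75 and 9.92 in Si8.EC. The fractions did not overlap, and the log2 fold changes were 0.68 ± 0.11 and 0.50 ± 0.11 (edgeR adjusted p = 4.1e-05 and 0.000593). Ndufaf2 and Ndufaf4 rose in Si8 (0.45 and 0.52), and in DC their log2 fold changes of -0.22 and 0.20 did not pass. Ndufaf6 fell in DC by 0.39, except without DC.EC library 14 or without the low-count filter (edgeR adjusted p = 0.0514 and 0.092).

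Complex II and complex III. Sdhb, the iron-sulphur subunit of succinate dehydrogenase, fell in both regions. It had 95.9, 103, 110 and 91.1 CPM in DC.GC against 134, 126, 138 and 132 in DC.EC, and 145, 123, 120 and 114 CPM in Si8.GC against 185, 165, 173 and 172 in Si8.EC. Goblet libraries were lower without overlap, by 0.40 ± 0.08 in DC and 0.47 ± 0.08 in Si8 on the log2 scale (edgeR adjusted p = 0.000272 and 4.4e-05). Sdha, the flavoprotein subunit, fell by 0.40 in Si8 (368 ± 18.7 CPM in Si8.GC, 484 ± 16.2 in Si8.EC; edgeR adjusted p = 8.7e-05). It had 311 ± 18.8 CPM in DC.GC and 349 ± 20.9 in DC.EC, which did not pass. The membrane anchors Sdhc and Sdhd did not follow: Sdhd rose by 0.27 in DC (edgeR adjusted p = 0.0137), a call lost without DC.EC library 12 or 17 (adjusted p = 0.0519 and 0.0554), and Sdhc passed in neither region.

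In complex III, the Rieske iron-sulphur protein Uqcrfs1 fell in both regions, to 153 ± 10.6 CPM in DC.GC against 190 ± 17.4 in DC.EC and to 140 CPM (124 to 162) in Si8.GC against 180 CPM (169 to 186) in Si8.EC. Its log2 fold changes were -0.31 and -0.37 (edgeR adjusted p = 0.00532 and 0.00113). Uqcrc1, a core subunit on the matrix side, had 198, 232, 236 and 210 CPM in DC.GC against 277, 227, 268 and 242 in DC.EC, where the libraries overlapped (-0.21; edgeR adjusted p = 0.0492). That call was lost in 13 of 22 alternatives (adjusted p 0.0531 to 0.17), including without DC.GC library 9, 11 or 18, DC.EC library 10, 14 or 17, Si8.GC library 4 or any 1 of the 4 Si8.EC libraries. In Si8 the fractions were far apart, with 293, 283, 270 and 232 CPM in Si8.GC against 379, 419, 415 and 383 in Si8.EC (-0.57 ± 0.09; edgeR adjusted p = 1.6e-05). The other core subunit, Uqcrc2, fell by 0.28 in DC, and the ubiquinone-binding Uqcrb by 0.36 (edgeR adjusted p = 0.00661 and 0.006). Neither passed in Si8, where Uqcrq fell by 0.28 (edgeR adjusted p = 0.00788). Uqcr10 rose by 0.21 in Si8 at the edge of the threshold (edgeR adjusted p = 0.0488), and the call was lost in 13 of 22 alternatives, with adjusted p up to 0.167. These include leaving out DC.GC library 9 or 11, DC.EC library 10, Si8.GC library 2, 4 or 6, or Si8.EC library 1, 5 or 7.

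ATP synthase. Atp5d, the delta subunit of the central stalk, fell in both regions. It had 130, 141, 145 and 131 CPM in DC.GC against 190, 170, 171 and 180 in DC.EC, and 173, 175, 164 and 156 CPM in Si8.GC against 250, 249, 274 and 256 in Si8.EC. All goblet libraries were lower, by 0.38 ± 0.07 in DC and 0.62 ± 0.07 in Si8 on the log2 scale (edgeR adjusted p = 9.2e-05 and 1.7e-07). The catalytic Atp5b and its partner Atp5a1 fell in Si8 by 0.28 and 0.33 (edgeR adjusted p = 0.0106 and 0.00179). Without Si8.GC library 8 the Atp5b call was lost (adjusted p = 0.0516), as it was in the fit of the 2 groups alone (0.0546). Atp5b had 1646, 1498, 1455 and 1341 CPM in Si8.GC against 1882, 1869, 1762 and 1675 in Si8.EC. In DC neither passed: Atp5b averaged 1430 ± 97.9 CPM in DC.GC and 1463 ± 95.8 in DC.EC, and Atp5a1 1237 ± 57.9 in DC.GC and 1206 ± 83.7 in DC.EC.

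Atp5g1, Atp5g2 and Atp5g3 encode the same mature c subunit of the membrane rotor with different import sequences. Atp5g2 rose in both regions, with 37.4, 43.6, 44.1 and 38.1 CPM in DC.GC against 30.2, 31.0, 30.8 and 29.0 in DC.EC, and 34.5, 34.7, 31.5 and 31.4 CPM in Si8.GC against 27.8, 28.3, 24.5 and 24.0 in Si8.EC. The fractions did not overlap, and the log2 fold changes were 0.43 ± 0.08 and 0.34 ± 0.08 (edgeR adjusted p = 0.00015 and 0.00117). Atp5g1 rose in DC by 0.32 (131 ± 10.2 CPM in DC.GC, 105 ± 13.8 in DC.EC; edgeR adjusted p = 0.0229), and lost the call without DC.GC library 13 or DC.EC library 12 or 17 (adjusted p = 0.0781, 0.107 and 0.0878). Atp5g3, the most abundant of the 3 per kilobase, fell in Si8 by 0.26 (194 ± 20.5 CPM in Si8.GC, 233 ± 7.12 in Si8.EC; edgeR adjusted p = 0.0133), except without Si8.GC library 8 (adjusted p = 0.0647). Atp5o, of the peripheral stalk, and the membrane subunit Atp5j2 also fell in Si8 (-0.34 and -0.29), and Atp5j2 in DC (-0.28).

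Comparing the 2 regions, 13 of the 86 genes (15.1%) were lower in goblet cells of both regions, and 3 (3.49%) were higher in both. Only 1 (Atp5sl) was higher in DC and lower in Si8. The DC call of Atp5sl was lost in 5 alternatives (adjusted p 0.0519 to 0.164). Among them were the fits without DC.GC library 11 or DC.EC library 12 or 17 (adjusted p = 0.0561, 0.0695 and 0.0916). Over all 16001 genes tested, 18.2% were lower in both and 18.6% higher in both. The 13 were Cox4i1, Cox5a, Cox5b, Cox6a1, Cox6b2, Cox7a1, Atp5d, Atp5j2, Ndufa11, Ndufb8, Sdhb, Uqcrc1 and Uqcrfs1, and the 3 were Ndufa4, Ndufaf7 and Atp5g2. Both calls held under every alternative for 8 of the 13 (Cox4i1, Cox5b, Cox6a1, Cox7a1, Atp5d, Atp5j2, Sdhb and Uqcrfs1) and for 2 of the 3 (Atp5g2 and Ndufaf7). A further 39 genes (45.3%) passed in neither region, against 20.7% of all genes tested. Across the 86 genes the log2 fold changes of the regions had a Pearson correlation of 0.64, as a description over genes that share libraries within each region. The same value was 0.58 over all 16001 genes tested, 0.79 over the 14 genes of complex IV, 0.78 over the 15 of complex V and 0.15 over the 36 of complex I. The low-count gene Cox6b2 of complex IV had the most negative change of the 86 in both regions (-1.32 in DC and -2.61 in Si8). Correlations without it were not computed.

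The difference between the goblet effects of the 2 regions was tested directly, as DC.GC minus DC.EC less Si8.GC minus Si8.EC. It passed for 14 of the 86 genes, 6 with a positive and 8 with a negative difference, where 15.6% of all genes tested had a positive and 16.5% a negative one, 32.1% in all (edgeR quasi-likelihood test). With adjacent library numbers as a block, 15 differences were positive and 12 negative, and all 14 passed there too. The block fit gave 3263 positive and 3658 negative differences among all 16001 genes tested. Ndufa1 had the largest negative difference, -0.77 ± 0.12 (adjusted p = 3.4e-05), with effects of -0.64 in DC and 0.13 in Si8. Ndufa6 (-0.61; effects of -0.59 and 0.02; adjusted p = 9.5e-05), Ndufb4 (-0.61; adjusted p = 0.0212) and Cox5a (-0.47 ± 0.10; adjusted p = 0.00122) were also lowered more in DC. Cox6c (-0.39; adjusted p = 0.0244) kept this only with all libraries or most left-out ones, missing it without Si8.GC library 2 or Si8.EC library 5 (adjusted p = 0.0536 and 0.0551). Uqcr10, Ndufaf2 and Ndufaf6 made up the rest of the negative ones (-0.41, -0.67 and -0.48). The Ndufaf6 difference missed the threshold in 13 alternatives (adjusted p 0.0505 to 0.15). They include leaving out DC.GC library 9, 11 or 18, DC.EC library 10, 14 or 17, Si8.GC library 2, 4 or 8, or Si8.EC library 5 or 7.

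Among the positive differences, Cox7a1 (0.57 ± 0.17; adjusted p = 0.0153) was lowered more in Si8. Ndufv3 (0.38; adjusted p = 0.00827), Atp5a1 (0.37; adjusted p = 0.0211) and Uqcrc1 (0.35; adjusted p = 0.0359) were lower in Si8.GC and near level or slightly lower in DC.GC. Each of these 3 lost the call without DC.EC library 12 (adjusted p = 0.052, 0.111 and 0.166) and without the low-count filter (0.0636, 0.0507 and 0.0735). Leaving out other single libraries also ended it for Atp5a1 (DC.GC library 13, 0.0529, and Si8.GC library 8, 0.0515) and for Uqcrc1 (DC.GC libraries 11 and 13, DC.EC library 17, Si8.GC library 8, and Si8.EC libraries 3 and 5, with adjusted p between 0.053 and 0.0846). Ndufa4 rose more in DC (0.45 ± 0.17; adjusted p = 0.0422), and this missed the threshold without any 1 of 10 libraries, with adjusted p between 0.0586 and 0.106. Those were DC.GC libraries 11 and 13, DC.EC libraries 10, 12 and 17, Si8.GC libraries 4, 6 and 8, and Si8.EC libraries 1 and 3.

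**Figure D4:**
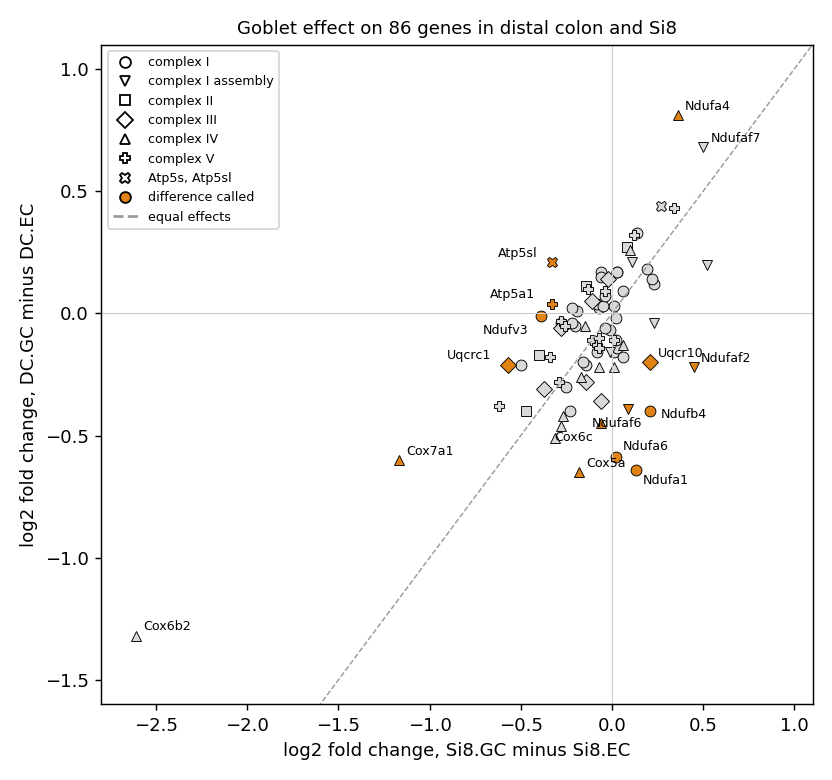
Fitted log2 fold change of the 86 tested genes, goblet-sorted cells minus the remaining epithelium, in the 8th small intestinal section (horizontal) and in the distal colon (vertical). Marker shapes give the complex, orange points are the 14 genes whose effects differed between regions by the test of the difference, and the dashed line marks equal effects. Ndufa1, Ndufa6 and Cox5a lie below the line and Cox7a1 and Ndufa4 above it.

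Between regions, complex IV stood higher in the distal colon in both fractions, although the comparison is joined to depth and to the handling of mitochondrially encoded genes. In goblet cells (DC.GC against Si8.GC), of the 86 genes 31 were called higher in DC and 15 lower, where 30.6% of all genes tested were higher and 31.5% lower, 62.1% in all (edgeR quasi-likelihood test). With size factors of the relative log expression kind the split was 25 higher and 19 lower, and with no low-count filter 20 and 19. The median log2 fold change was 0.02, against -0.02 over all genes. In the remaining epithelium (DC.EC against Si8.EC), 31 were higher and 24 lower, where 33.3% of all genes were higher and 33.6% lower, 66.9% in all. In goblet cells complex IV counted 9 of 14 genes higher and 0 lower (median log2 fold change 0.30; 0 lower also at an unadjusted p under 0.05 and by DESeq2), and 10 higher and 2 lower in the remaining epithelium (0.45).

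**Figure D5:**
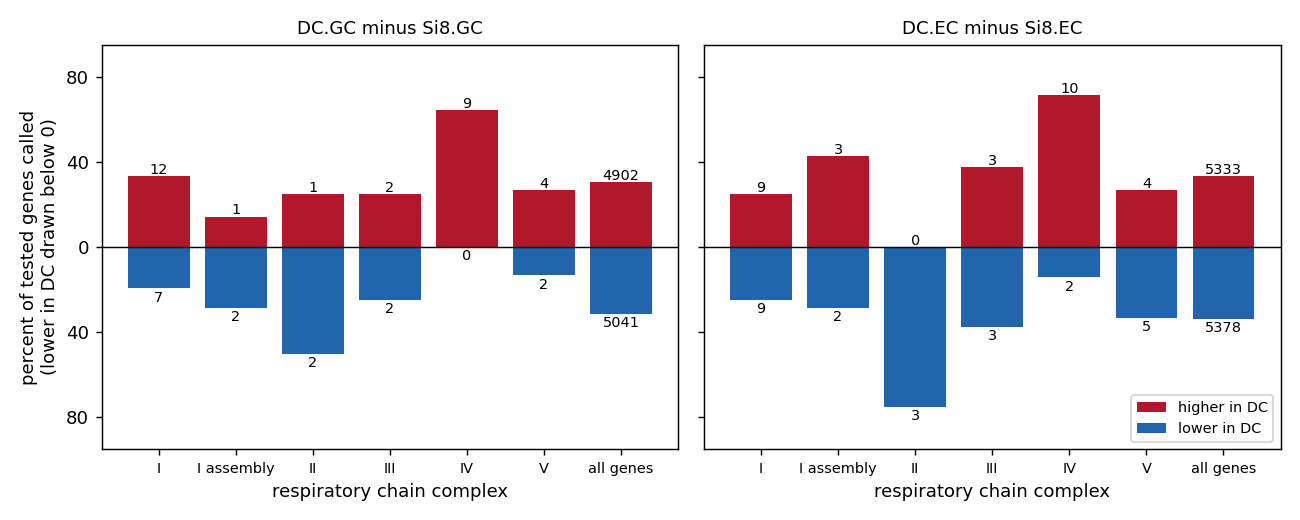
Percent of tested genes called higher in DC (above 0) and lower in DC (below 0) by complex and over all genes tested, for goblet cells (left) and the remaining epithelium (right), with the number of genes at each bar. Complex IV has 9 genes higher in the left panel and 10 in the right.

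Cox7a2l was higher in DC in both fractions, at 152 CPM in DC.GC (139 to 167) against 80.5 in Si8.GC (76.4 to 87.9) (0.92 ± 0.08; edgeR adjusted p = 1.1e-08), and 127 CPM in DC.EC (122 to 135) against 75.0 in Si8.EC (66.9 to 85.0) (0.76 ± 0.08; edgeR adjusted p = 1.2e-07). Cox7a1 was also higher in DC, by 1.12 in goblet cells and by 0.56 in the remaining epithelium. Cox6c, Cox7c, Cox7a2, Cox4i1, Cox6a1, Cox7b and Cox8a were each higher in DC in both fractions (by 0.26 to 0.35 in goblet cells and 0.24 to 0.74 in the remaining epithelium). In goblet cells the Cox7b call was lost without DC.GC library 13 (edgeR adjusted p = 0.0654). Without the low-count filter Cox7b and Cox6a1 missed the threshold in goblet cells (0.0872 and 0.0509) and Cox8a in the remaining epithelium (0.0699). Ndufa4 was lower in DC.EC than in Si8.EC (-0.57 ± 0.12; edgeR adjusted p = 0.000285), and Cox6b2 likewise (-1.74).

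In complex I the regional differences went both ways. Ndufa7 was higher in DC in both fractions, at 73.1 ± 6.24 CPM in DC.GC against 44.9 ± 4.09 in Si8.GC and 67.2 ± 7.72 in DC.EC against 38.3 ± 1.34 in Si8.EC (0.70 and 0.81; edgeR adjusted p = 1.2e-06 and 1.4e-07). Ndufa1 was higher by 0.47 in goblet cells and by 1.24 in the remaining epithelium, and Ndufa6 by 0.31 and 0.92. Ndufb2 was higher by 0.84 in both, but its reads may be shared with an overlapping gene model, Gm42420. Ndufb7 was lower in DC in both fractions (-0.49 and -0.78; edgeR adjusted p = 8.3e-05 and 1.9e-07).

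In complex II the 4 genes did not go one way. Sdhb was lower in DC (-0.33 in goblet cells and -0.39 in the remaining epithelium), as were Sdha (-0.24 and -0.47) and, in the remaining epithelium, Sdhc (-0.35), whose goblet value of -0.10 did not pass. Sdhd was higher in DC.GC than in Si8.GC (215 against 186 CPM; 0.21, edgeR adjusted p = 0.0428), a call lost in 12 of 22 alternatives (adjusted p 0.0574 to 0.256), among them leaving out any 1 of the 4 DC.GC libraries, DC.EC library 10 or 12, or Si8.GC library 4, 6 or 8. In the remaining epithelium its value of 0.03 did not pass (edgeR adjusted p = 0.799). In complex III, Uqcrc1 and Uqcrq were lower in DC (-0.30 and -0.41 in goblet cells, -0.65 and -0.63 in the remaining epithelium), and Uqcr10 higher (0.53 and 0.94). In ATP synthase, Atp5e, the epsilon subunit, was higher in DC (0.63 and 0.49) and Atp5d lower (-0.29 and -0.53). Atp5s and Atp5sl were higher in DC in both fractions (0.82 and 0.87 in goblet cells, 0.65 and 0.33 in the remaining epithelium).

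Other genes of mitochondrial energy metabolism were read from lists, and their calls were made in the full fit only. The lists are described by counts, to be read against all genes tested, of which 27.8% were higher and 27.9% lower in DC.GC than in DC.EC, and 33.1% higher and 31.8% lower in Si8.GC than in Si8.EC, with a median log2 fold change of 0.03 in both regions. Among 19 tested carriers and electron-transfer genes around the chain, 1 rose and 11 fell in DC.GC against DC.EC (median log2 fold change -0.31; 7 not called), and 3 rose and 11 fell in Si8.GC against Si8.EC (-0.34; 5 not called). Cycs, somatic cytochrome c, fell by 0.67 in DC and 0.80 in Si8, and the cytochrome c1 gene Cyc1 by 0.31 and 0.34. Gpd2, which feeds electrons from glycerol phosphate to ubiquinone, fell by 1.76 and 1.57. The phosphate carrier Slc25a3 fell by 0.67 and 0.79. Slc25a4, an adenine nucleotide carrier, rose by 0.42 in DC and fell by 1.92 in Si8, and this difference between regions passed (2.34; edgeR adjusted p = 4.4e-08).

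Of 42 assembly factors other than Ndufaf, 22 were not called in DC and 22 in Si8: 14 rose and 6 fell in DC (median log2 fold change 0.17), where all genes gave 27.8% higher and 27.9% lower, and 15 rose and 5 fell in Si8 (0.07), where all genes gave 33.1% and 31.8%. Surf1, a complex IV assembly factor, rose by 0.58 in DC, and Sdhaf1 and Uqcc3, which serve complexes II and III, rose in both regions (0.79 and 0.71 in DC, 0.44 and 0.62 in Si8). Sco1 and Cox11, which deliver copper to complex IV, fell in both (-0.43 and -0.50 in DC, -0.52 and -0.35 in Si8). Mitochondrial ribosomal proteins, which translate the mitochondrially encoded subunits, rose in 24 and fell in 4 of 76 genes in DC (median 0.17; 48 not called), and rose in 40 and fell in 1 in Si8 (0.26; 35 not called).

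Of 22 regulators of mitochondrial biogenesis, 6 rose and 6 fell in DC (median log2 fold change -0.07; 10 not called), and 9 rose and 7 fell in Si8 (0.05; 6 not called), where all genes gave higher and lower shares of 27.8% and 27.9% in DC and 33.1% and 31.8% in Si8. Esrra, a nuclear receptor known to drive respiratory genes, fell by 0.82 in DC and 1.30 in Si8, and its coactivator Ppargc1a fell by 1.74 in Si8. Tfam, which packages and transcribes mitochondrial DNA, rose by 0.40 and 0.48. In the tricarboxylic acid cycle (18 genes), 4 rose and 1 fell in DC (median 0.03; 13 not called), and 2 rose and 7 fell in Si8 (-0.04; 9 not called). Cs, citrate synthase, fell by 1.26 and 1.09, while Idh2 rose by 0.89 and 0.57. Of 17 glycolysis genes, 1 rose and 15 fell in DC (median -0.99; 1 not called), and 2 rose and 11 fell in Si8 (-0.39; 4 not called). Slc2a1, a glucose transporter, fell by 1.07 in DC and rose by 2.32 in Si8 (difference -3.39; edgeR adjusted p = 2.9e-09).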

How the data were processed

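Paired-end reads of stranded total RNA libraries depleted of ribosomal RNA were counted per gene by the authors, who deposited raw counts, 1 table for each region. The build mm10 is listed, and DESeq2 1.14, HTSeq 0.6.1p1, FastQC 0.11.2 and STAR 2.4.0f are listed, with no roles given, per the submitters' processing notes. The strand setting of the counting is not given in the sources used here, so reads of 29 genes that overlap an exon on the opposite strand, and of 30 genes with a near-identical copy (blastn, at least 90% identity over 200 bases and 50% of the copy), are uncertain to that extent. The deposited counts were joined by symbol over 46882 genes; 4 rows with a duplicated symbol were left out.

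Counts of all 16 libraries were fitted together in edgeR 4.0.16 (R 4.3.3) with TMM scaling, its default low-count filter by group (16001 genes kept), a quasi-likelihood test and Benjamini-Hochberg adjustment over all genes tested, at 0.05. CPM values use TMM library sizes. Levels per kilobase divide by the longest principal transcript of the GENCODE M21 annotation. Libraries held 11915081 to 41075589 counts, and precision is limited by 4 libraries a group. Standard errors were derived from the quasi-likelihood test, as the absolute log2 fold change divided by the square root of its F statistic. Sequences are from RefSeq.

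For each comparison and complex, named genes were the 2 largest and 2 smallest called changes at 10 CPM or more without overlap, all detected isoform families, genes called against their complex, and the extreme genes of each list; other genes were named after their values were seen. The members and all lists were chosen with earlier results of these data known. Alternatives were other scaling, DESeq2 1.42.0, no filter, fits without mitochondrially encoded genes, Muc2 and Fcgbp, fits of 2 groups, and each library left out. A fit with adjacent library numbers as a replicate block was added after seeing the data.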

Additional observations from a re-analysis of the deposited data

Results flagged for a closer look

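The goblet effects of 14 genes differed between the distal colon and the 8th small intestinal section by edgeR's test of the difference (log2, DC minus Si8). The difference was negative for Ndufa1 (-0.77), Ndufaf2 (-0.67), Ndufa6 (-0.61), Ndufb4 (-0.61), Ndufaf6 (-0.48), Cox5a (-0.47), Uqcr10 (-0.41) and Cox6c (-0.39). It was positive for Cox7a1 (0.57), Atp5sl (0.54), Ndufa4 (0.45), Ndufv3 (0.38), Atp5a1 (0.37) and Uqcrc1 (0.35). Atp5sl was called in opposite directions, with effects of 0.21 in DC and -0.33 in Si8, but its DC call was lost in 5 alternatives.

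In 7 of 218 sets of 4 libraries, 1 library stood apart from the other 3; chance gives about 1 in 20. All 7 were high. DC.GC library 13 had 146 CPM of Atp5g1 against 125 to 126 CPM in the other DC.GC libraries, 84.9 CPM of Ndufb11 against 73.2 to 74.9, and 123 CPM of Sdhc against 105 to 107. Si8.GC library 2 had 216 CPM of Sdhd against 172 to 179 and 297 CPM of Uqcrc2 against 253 to 260 in the other Si8.GC libraries. Si8.EC library 1 had 238 CPM of Cox6b1 against 195 to 200. DC.EC library 14 had 11.3 CPM of Ndufaf5 against 9.73 to 9.99.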

How the results depend on the processing

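The counts of genes called and the medians by comparison were recomputed under 22 alternatives and 1 more, a fit with a block that was chosen after seeing the data. Fits of 2 groups cannot give the difference of the goblet effects, which was left out of that alternative. Without the low-count filter, 20 genes in place of 31 were higher in DC.GC than in Si8.GC; the other scalings, DESeq2, the fits of 2 groups and the fit without mitochondrially encoded genes, Muc2 and Fcgbp left every count within 1.5 times its value. Leaving out 1 library gave 5 to 12 genes higher and 16 to 27 lower in DC.GC against DC.EC, 4 to 11 higher and 18 to 31 lower in Si8.GC against Si8.EC, and 2 to 8 positive and 6 to 10 negative differences of the goblet effect. The lowest counts came without DC.EC library 12 (5 higher in DC, 2 positive differences) and Si8.GC library 2 (4 higher in Si8); without Si8.EC library 1, 11 were higher in Si8, and 3 differences were positive without DC.GC library 13 or Si8.GC library 8.

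Of 179 calls of single genes over the 5 comparisons, 53 missed the threshold under at least 1 of the 22, and 0 of these calls changed sign. Calls of AA467197, the markers and the other pathway lists were not recomputed under the alternatives. The groups share no library numbers, but the numbers run in adjacent pairs of a GC and an EC library of 1 region (9 and 10, 17 and 18, and so on), and the labels do not say that these mark a shared animal or day. Deviations of adjacent libraries from their group means were correlated over 5258 genes. The correlations were 0.19 to 0.68 in the 4 DC pairs and 0.48 to 0.73 in the 4 Si8 pairs. In all 8 pairs the GC library correlated best with its adjacent EC library, a hint from the data and not from the design. For DC.GC library 9 the margin was small, at 0.23 with library 10 against 0.21 with another EC library. The highest correlation with another EC library was 0.43, for Si8.GC library 6 (0.70 with library 5). With adjacent library numbers as a replicate block, 12 genes were higher and 31 lower in DC.GC against DC.EC. In Si8.GC against Si8.EC 11 were higher and 32 lower, and 15 differences of the goblet effect were positive and 12 negative. Among all 16001 genes tested, the block fit called 5105 higher and 4923 lower in DC, and 5820 and 5570 in Si8. Without the block these were 4444 and 4467 in DC, and 5291 and 5092 in Si8. Differences over all genes were positive for 3263 and negative for 3658 with the block, against 2492 and 2641 without it. The calls of the fit without the block all passed with the block (32, 32 and 14). Comparisons between regions could not be fitted with the block, since each pair lies within 1 region. Cox6b2 and the untested isoforms are limited by their low counts.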
